A study of Mus musculus with 4 samples.

Results

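Sorting of mouse mammary epithelial cells rests on a short list of proteins on the cell surface, and the genes of 9 of them were read here in cultured mammary cells: Epcam, Cd24a, Itgb1, Cd44, Itgb3, Itga2, Cd14, Ly6a and Prom1. They were taken by gene symbol from the 54446 genes of the deposited expression table, and each symbol matched 1 row. All 9 had a value above 0 in all 4 libraries. They were listed as sorting markers, with earlier results of these data known.

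The mammary duct has an outer basal layer of contractile myoepithelial cells, which also holds stem cells, and an inner luminal layer with cells that sense hormones and cells that can turn into milk-producing alveoli. In sorted fresh tissue the epithelial adhesion molecule EpCAM (Epcam) and the small GPI-anchored sialoglycoprotein CD24 (Cd24a) mark epithelium, more strongly on luminal cells, while the integrin chain CD29 (Itgb1) and the hyaluronan receptor CD44 (Cd44) are stronger on basal cells. Within the luminal layer, the integrin chains CD61 (Itgb3) and CD49b (Itga2) and the lipopolysaccharide co-receptor CD14 (Cd14) are used for progenitors, and Sca1 (Ly6a) and CD133 (Prom1) for hormone-sensing cells.

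Mammary cells of wild-type C57BL/6 mice were sorted by flow cytometry, cultured in 3 dimensions in Matrigel, and given DMSO as the vehicle or 100 μM baicalin, a flavonoid of Scutellaria roots. Poly(A) RNA was sequenced from 1 library for each of the groups basal DMSO, basal baicalin, luminal DMSO and luminal baicalin. The labels give no age of the mice, no length of treatment for these libraries and no pooling. The study's methods give an age range in weeks for the female mice behind its primary cells. They also give a time in culture at which colonies were scored, and tie neither to these libraries. The study describes its basal and luminal gates by CD24 and CD29, after staining for CD31, CD45 and TER119, so Cd24a and Itgb1 encode the proteins by which the cells were named, and a difference between the labels in these 2 genes is a description only. The sort read protein on fresh cells, and the values here are RNA after culture. Values are FPKM, which divide a gene's fragments by its exon length and by the library's total and so allow levels of different genes to be compared. Between 19356099 and 20648789 fragments lay behind each library, and between 248 and 28235 behind each value of the 9 genes. The 95% intervals below come from these fragments and cover counting error only. With no replicates, no difference between conditions was tested and no p-value is given. In these bulk libraries, fewer cells of a type and less RNA per cell cannot be told apart.

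The labels did not match the keratin and muscle genes. The summed FPKM of 10 basal markers, among them Krt5, Krt14, Trp63 and Acta2, was 1761 and 479 in the DMSO and baicalin libraries labelled basal, and 5404 and 7199 in those labelled luminal. The summed FPKM of 10 luminal markers, among them Krt8 and Krt18, was 3901 and 2730 under the basal label and 1149 and 986 under the luminal label. Of the basal markers 9 of 10 passed a log2 difference of 1 upwards in the luminal DMSO library and 10 of 10 in the luminal baicalin library. The shares of all genes were 4.71% and 5.24%. Of the luminal markers 6 of 10 passed it downwards in each, against 3.86% and 2.99% of all genes. Foxa1 and Gata3, factors of luminal cells, passed it upwards in the luminal DMSO library, at 1.88 and 1.0. Basal and luminal are therefore used here as names of libraries. Of the markers of cells removed by the sort, Pecam1 (CD31) lay between 0.261 and 1.28 FPKM and Ptprc (CD45) between 0 and 0.0138 FPKM. Summed markers lay between 0.876 and 3.46 FPKM for endothelium, 0.710 and 2.19 for blood (with 2 to 4 of 7 markers at 0), 2.61 and 15.9 for fibroblasts and 0.163 and 15.5 for adipocytes, with the last 2 sums highest in the luminal DMSO library. The part of these marker differences in the results below was not tested.

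RefSeq (GRCm38.p6) held a promoter for 5 of the 9 genes, from 250 bases before to 50 bases after a start site. There was no entry for Cd24a, Itgb3, Cd14 and Ly6a. The windows of Prom1, Itga2 and Epcam are shown because, among the 5, Prom1 had the lowest and Itga2 the highest log2 change with baicalin, and Epcam the highest level. They lie at chr5:44101687-44101986 (minus strand), chr13:114932051-114932350 (minus strand) and chr17:87635729-87636028 (plus strand). Capitals mark matches on either strand to the GC box GGGCGG, the AP-1 site TGANTCA, the xenobiotic response core GCGTG and the antioxidant response core TGACNNNGC.
Prom1: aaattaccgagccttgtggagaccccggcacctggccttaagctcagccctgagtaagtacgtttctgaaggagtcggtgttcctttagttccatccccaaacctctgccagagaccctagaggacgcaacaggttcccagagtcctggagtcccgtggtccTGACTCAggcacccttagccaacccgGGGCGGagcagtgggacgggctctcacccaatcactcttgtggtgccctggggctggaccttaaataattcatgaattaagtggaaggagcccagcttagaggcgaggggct
Itga2: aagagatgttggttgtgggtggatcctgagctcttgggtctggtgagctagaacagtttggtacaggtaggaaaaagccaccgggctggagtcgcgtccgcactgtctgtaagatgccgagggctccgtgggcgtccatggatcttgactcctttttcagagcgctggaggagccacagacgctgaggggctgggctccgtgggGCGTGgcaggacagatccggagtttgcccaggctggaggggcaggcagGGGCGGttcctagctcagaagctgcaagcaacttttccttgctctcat
Epcam: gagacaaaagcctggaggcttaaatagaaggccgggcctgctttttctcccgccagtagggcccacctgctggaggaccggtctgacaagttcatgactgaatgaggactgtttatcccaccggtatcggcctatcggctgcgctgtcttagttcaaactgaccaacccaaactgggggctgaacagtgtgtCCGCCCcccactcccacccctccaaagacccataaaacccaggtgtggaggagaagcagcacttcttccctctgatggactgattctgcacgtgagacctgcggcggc

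The Prom1 window held an AP-1 match starting at -88 and a GC box at -62 from the start site. The Itga2 window held a xenobiotic response core at -46 and a GC box at 2, and the Epcam window a GC box at -58. None of these matches overlapped another. Of 32851 promoter windows of this length, 35.7% held the GC box, 7.81% the AP-1 site, 32.4% the xenobiotic response core and 12.4% the antioxidant response core. Prom1 has a further start site in RefSeq, with a window at chr5:44094719-44095018 that held an AP-1 match at -189 and an antioxidant response core at -79 and no GC box. The gene-level values do not say which start was used. A match describes letters in the window only.

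The levels of the 9 genes spread widely. In every library Epcam, Itgb1, Cd24a and Cd44 were the 4 highest, from 94.1 to 637 FPKM. Each lay above about 98.3% to 99.9% of the genes detected in the same library. Cd14, Ly6a, Itgb3, Itga2 and Prom1 ranged from 1.79 to 78.1 FPKM. Epcam was the highest of the 9 in each library. Itga2 was the lowest of the 9 in the basal DMSO library, and Prom1 was the lowest in the other 3. Neighbours in this order whose intervals overlapped were Prom1 and Itgb3 in the basal DMSO library, Itga2 and Itgb3 in the luminal DMSO library, and Cd24a and Cd44 in the luminal baicalin library. The 9 genes together took 0.511% of all counted fragments in the basal DMSO library, 0.360% in the basal baicalin library, 0.272% in the luminal DMSO library and 0.330% in the luminal baicalin library.

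**Figure D1:**
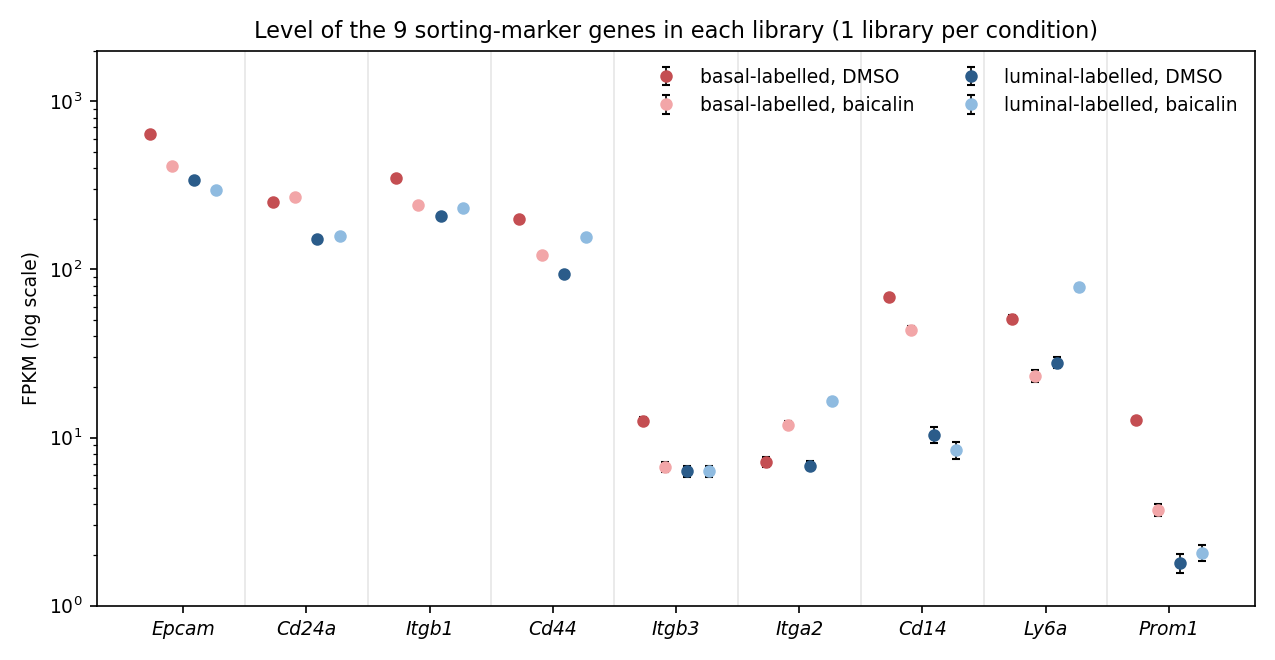
FPKM (log scale) of the 9 genes in the 4 libraries, 1 point per library, with exact Poisson 95% counting intervals, which are mostly smaller than the points. Epcam, Cd24a, Itgb1 and Cd44 lie at or above 94.1 FPKM in all 4 libraries, and Cd14 and Prom1 show the widest distance between the basal DMSO library and the libraries labelled luminal.

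Epcam (ENSMUSG00000045394, GRCm38 chr17:87635979-87651129) encodes a homophilic adhesion molecule of epithelia. It was at 637 FPKM in basal DMSO, 414 in basal baicalin, 342 in luminal DMSO and 295 in luminal baicalin. Both libraries labelled basal were above both labelled luminal, and within each label the baicalin library was lower. The ratio of baicalin to DMSO was 0.649 (0.637 to 0.662) under the basal label and 0.863 (0.842 to 0.884) under the luminal label.

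Cd24a (ENSMUSG00000047139, chr10:43578284-43584265), the axis of the sort shared by both gates, moved little with baicalin. It was at 251 FPKM in basal DMSO, 269 in basal baicalin, 152 in luminal DMSO and 158 in luminal baicalin. The baicalin to DMSO ratio was 1.07 (1.05 to 1.10) under the basal label and 1.04 (1.0 to 1.07) under the luminal label. The luminal libraries held 0.606 times the basal level with DMSO (0.589 to 0.623) and 0.586 times with baicalin (0.570 to 0.602). Cd24a thus kept nearly the same distance between the labels with either treatment. Gm6212 shares 218 bases at 96.8% identity with Cd24a and reached at most 0.224 FPKM.

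Itgb1 (ENSMUSG00000025809, chr8:128685654-128733200) encodes the β1 chain that pairs with many α chains to bind laminin, collagen and fibronectin. It was at 348 FPKM in basal DMSO, 243 in basal baicalin, 207 in luminal DMSO and 232 in luminal baicalin. Basal DMSO stood above the other 3 libraries, which lay between 207 and 243 FPKM. The luminal to basal ratio was 0.594 (0.582 to 0.605) with DMSO and 0.955 (0.936 to 0.974) with baicalin.

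Cd44 (ENSMUSG00000005087, chr2:102811141-102901665) encodes the hyaluronan receptor, whose many splice forms are not separated by gene-level values. It was at 199 FPKM in basal DMSO, 122 in basal baicalin, 94.1 in luminal DMSO and 157 in luminal baicalin. The order of the labels turned with treatment. The luminal to basal ratio was 0.472 (0.462 to 0.482) with DMSO and 1.29 (1.26 to 1.32) with baicalin.

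Of the progenitor markers, Itgb3 (ENSMUSG00000020689, chr11:104608000-104670476), the β3 chain that pairs with αv or, on platelets, αIIb, was at 12.6 FPKM in basal DMSO, 6.67 in basal baicalin, 6.29 in luminal DMSO and 6.30 in luminal baicalin. Basal DMSO was high and the other 3 libraries could not be separated beyond counting error. The baicalin to DMSO ratio was 0.528 (0.484 to 0.576) under the basal label and 1.0 (0.904 to 1.11) under the luminal label.

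Itga2 (ENSMUSG00000015533, chr13:114833081-114932100), the α2 chain of the collagen receptor, was low in both DMSO libraries and higher in both baicalin libraries. It was at 7.16 FPKM in basal DMSO, 11.9 in basal baicalin, 6.81 in luminal DMSO and 16.6 in luminal baicalin. With DMSO the labels did not differ beyond counting error, at a luminal to basal ratio of 0.951 (0.869 to 1.04). The baicalin to DMSO ratio was 1.66 (1.54 to 1.80) under the basal label and 2.44 (2.26 to 2.63) under the luminal label. The ratio of Itgb3 to Itga2 FPKM was lower with baicalin under both labels. It was 1.76 in basal DMSO, 0.561 in basal baicalin, 0.923 in luminal DMSO and 0.380 in luminal baicalin. Of these 2 chains, only Itga2 moved beyond counting error under the luminal label.

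Cd14 (ENSMUSG00000051439, chr18:36725067-36726798) hands bacterial lipopolysaccharide to the receptor Tlr4. It was at 68.9 FPKM in basal DMSO, 43.9 in basal baicalin, 10.4 in luminal DMSO and 8.41 in luminal baicalin. Its libraries separated by label more than by treatment. The basal DMSO level was 6.64 times the luminal DMSO level (5.89 to 7.49), and the basal baicalin level 5.22 times the luminal baicalin level (4.58 to 5.96). With baicalin it was lower by a ratio of 0.637 (0.595 to 0.681) under the basal label and 0.810 (0.686 to 0.955) under the luminal label. Tlr4 had 8.53, 7.59, 2.74 and 5.10 FPKM in the same order of libraries, and Ly96, which encodes the adaptor MD-2, had 5.08, 4.59, 3.59 and 4.46 FPKM.

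Ly6a (ENSMUSG00000075602, chr15:74994877-74998031) encodes Sca1, a GPI-anchored protein of the Ly6 family, and had the largest contrast between the labels in its response. It was at 50.6 FPKM in basal DMSO, 23.2 in basal baicalin, 28.0 in luminal DMSO and 78.1 in luminal baicalin. The lowest and the highest library were both baicalin libraries. The baicalin to DMSO ratio was 0.459 (0.414 to 0.507) under the basal label and 2.79 (2.56 to 3.06) under the luminal label. Ly6a shares 263 bases at 96.6% identity with Ly6c1, so some fragments may be split between them. Ly6c1 had 2.46, 0.0588, 1.17 and 1.65 FPKM in the same order, far below Ly6a.

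Prom1 (ENSMUSG00000029086, chr5:43993620-44102032) encodes prominin-1, a protein of membrane protrusions. It was at 12.7 FPKM in basal DMSO, 3.72 in basal baicalin, 1.79 in luminal DMSO and 2.06 in luminal baicalin. Basal DMSO was far above the rest. The basal DMSO level was 7.10 times the luminal DMSO level (6.22 to 8.14). The baicalin to DMSO ratio was 0.294 (0.266 to 0.323) under the basal label and 1.15 (0.972 to 1.37) under the luminal label, where the interval held 1. Prom2, its relative, had 15.2, 24.7, 16.0 and 29.1 FPKM in the same order and was higher in both baicalin libraries. An antisense gene, Gm16401, shares 424 exon bases with Prom1 and was listed at 0 in all 4 libraries.

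The comparisons that follow share libraries and are therefore set side by side and not counted as separate evidence. A gene is counted as past the threshold when log2((FPKM + 1)/(FPKM + 1)) exceeded 1 in either direction, over the 17787 genes above 0 in all 4 libraries. Between the DMSO libraries, the question was how the sorting genes differ between the labels without drug. All 9 were lower in the library labelled luminal, where 47.5% of all genes were lower by sign, and for Itga2 the interval of the ratio held 1. Prom1, Cd14 and Cd44 were lower by more than 1, with log2 differences of -2.30, -2.62 and -1.08, against 3.86% of all genes. None was higher by more than 1, against 4.71% of all genes. The median log2 difference of the 9 genes was -0.89 and that of all genes was 0.01. On a TPM scale (FPKM rescaled to the same total in every library) 5 of the 9 were lower by more than 1, with Epcam and Itgb3 added. Genes that mark basal cells in fresh tissue (Itgb1, Cd44) and genes that mark luminal cells (Epcam, Cd24a, Cd14, Prom1) were thus lower together in the luminal DMSO library.

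Between the baicalin libraries, 6 of the 9 were lower under the luminal label and 3, Cd44, Itga2 and Ly6a, were higher, where 54.8% of all genes were lower by sign, and for Itgb3 the interval held 1. Ly6a was higher by more than 1, with a log2 difference of 1.71, against 5.24% of all genes. Cd14 was lower by more than 1, with a log2 difference of -2.25, against 2.99% of all genes. The median of the 9 was -0.07 and that of all genes -0.03. The distance between the labels was read as the size of the log2 FPKM ratio. It was smaller with baicalin than with DMSO for 6 genes and larger for 3, which were Cd24a, Itga2 and Ly6a. For Cd24a it was 0.72 with DMSO and 0.77 with baicalin, a difference within counting error. The size leaves out the sign, which turned for Cd44, Itga2 and Ly6a. The share of all genes with a smaller distance was not counted.

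**Figure D2:**
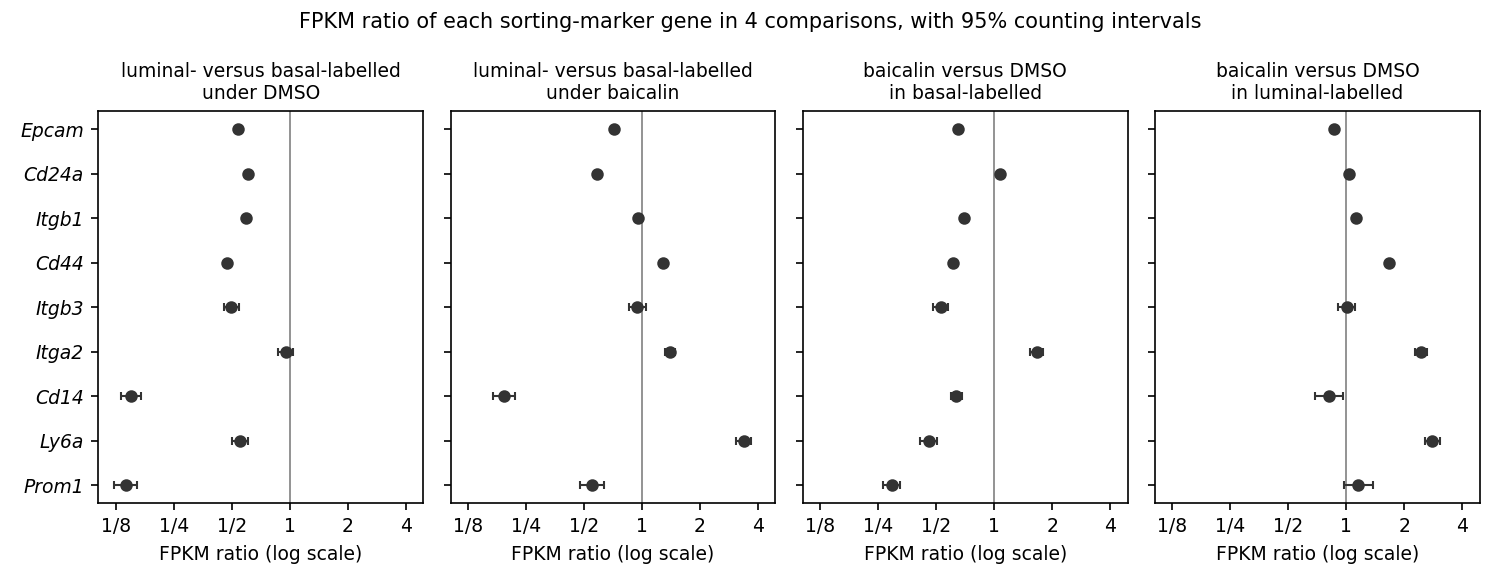
FPKM ratio (log scale) of each gene in the 4 comparisons, with 95% Clopper-Pearson counting intervals and a line at a ratio of 1. In the first panel all 9 points lie left of the line, and in the third panel 7 do, while in the fourth panel 7 lie at or right of it.

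The response to baicalin was the question the libraries were made for. Under the basal label 7 of the 9 genes were lower with baicalin, where 49.1% of all genes were lower by sign, and Cd24a and Itga2 were higher. Prom1 and Ly6a were lower by more than 1, with log2 changes of -1.53 and -1.09, against 3.33% of all genes. None of the 9 was higher by more than 1, against 2.15% of all genes. The median log2 change was -0.64, and that of all genes 0.01.

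Under the luminal label 7 of the 9 were higher with baicalin and 2, Epcam and Cd14, were lower, where 54.4% of all genes were lower by sign. For Itgb3 and Prom1 the interval of the ratio held 1. Ly6a and Itga2 were higher by more than 1, with log2 changes of 1.45 and 1.17, against 2.37% of all genes. None of the 9 was lower by more than 1, against 1.59% of all genes. The median log2 change was 0.13, and that of all genes -0.02.

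The responses under the labels were set against each other as the luminal ratio divided by the basal ratio. For Ly6a this was 6.09 (5.33 to 6.96), for Prom1 3.93 (3.24 to 4.76) and for Cd44 2.73 (2.65 to 2.81). It was 1.90 (1.66 to 2.17) for Itgb3, 1.61 (1.56 to 1.65) for Itgb1, 1.47 (1.32 to 1.64) for Itga2, 1.33 (1.29 to 1.37) for Epcam and 1.27 (1.07 to 1.52) for Cd14. Cd24a was the exception, at 0.967 (0.930 to 1.01). In 5 genes (Ly6a, Prom1, Cd44, Itgb3 and Itgb1) the level was lower with baicalin under the basal label. Under the luminal label it was at or above DMSO. For 4 genes the direction was shared. By sign, 49.1% of all genes were lower with baicalin under the basal label and 54.4% under the luminal label. The share of all genes with opposite directions was not counted, so the count of 5 is a description only. The intervals above cover counting error in 4 libraries, and whether the cell types respond differently was not tested. The basal markers moved too. With baicalin 9 of 10 were lower under the basal label, 4 of them by more than 1. Under the luminal label 5 were higher, Krt17 by more than 1, and 5 lower, of which Cnn1, Oxtr and Tagln by more than 1, and the higher sum there came with the keratins Krt5, Krt14 and Krt17. The luminal markers moved as well. Under the basal label 7 of 10 were lower with baicalin, 2 of them by more than 1, and 3 higher. Under the luminal label 8 were lower, 2 of them by more than 1, and 2 higher, 1 of them by more than 1. Of all genes, 3.33% were lower and 2.15% higher by more than 1 with baicalin under the basal label. Under the luminal label these shares were 1.59% and 2.37%. The part of these marker changes in the differences of response was not tested.

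**Figure D3:**
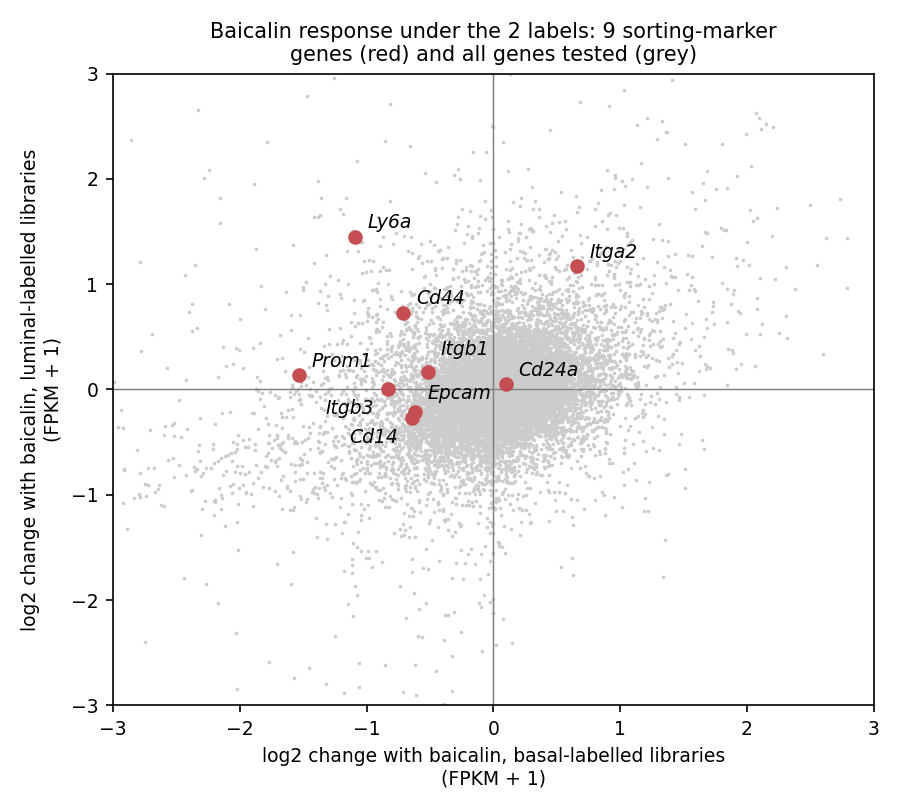
log2 change with baicalin (FPKM + 1) under the basal label (x) against the luminal label (y), with the 9 genes in red and the 17787 genes tested in grey. The axes stop at 3 in either direction, which leaves 29 genes out of view. Ly6a lies in the upper left at -1.09 and 1.45, Itga2 in the upper right, and Epcam and Cd14 in the lower left.

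Gates are drawn on pairs of markers, so ratios of FPKM within a library were also read. The ratio of Itgb1 to Cd24a, the transcripts of the sort's CD29 and CD24 axes, was 1.39 (1.36 to 1.42) in basal DMSO and 1.36 (1.32 to 1.40) in luminal DMSO, and these intervals overlapped. With baicalin it was 0.904 (0.885 to 0.924) under the basal label and 1.47 (1.44 to 1.51) under the luminal label. The transcript ratio thus did not separate the labels with DMSO, and with baicalin the library labelled luminal had the higher one. The ratio of Cd44 to Cd24a was 0.795 in basal DMSO, 0.452 in basal baicalin, 0.619 in luminal DMSO and 0.995 in luminal baicalin. The ratio of Epcam to Cd24a was 2.54 in basal DMSO, 1.54 in basal baicalin, 2.25 in luminal DMSO and 1.87 in luminal baicalin, so it was lower with baicalin under both labels. The ratio of Itgb1 to Epcam was 0.547, 0.587, 0.604 and 0.786 in the same order, with luminal baicalin the highest.

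**Figure D4:**
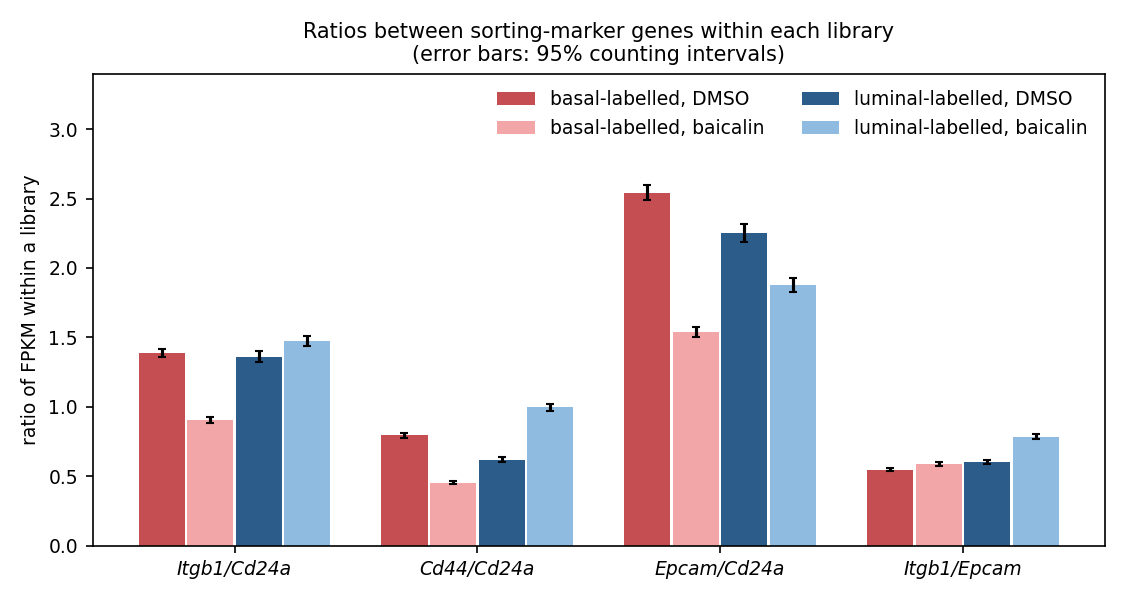
Ratio of FPKM between pairs of sorting genes within each library (bars, from 0) with 95% counting intervals. Itgb1/Cd24a is alike in the DMSO libraries, at 1.39 and 1.36, and lowest in basal baicalin at 0.904.

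Other surface genes used to sort mammary cells were read from a list of 24, all of them tested. Baicalin went with lower levels of 6 of the 24 by more than 1 under the basal label, against 3.33% of all genes. These were Kit, Cd200, Bst2, Muc1, Icam1 and Nt5e. Higher by more than 1 were 2, Procr and Cd55, against 2.15% of all genes, and the median log2 change of the 24 was -0.40. Under the luminal label Kit, Tspan8 and Lgr5 were lower by more than 1, against 1.59% of all genes. Procr and Nt5e were higher by more than 1 there, against 2.37% of all genes, and the median was -0.02. Set against luminal DMSO, basal DMSO was lower by more than 1 in 4 genes (Tspan8, Lgr5, Cd36 and Cdh3), against 4.71% of all genes. It was higher in 4 (Cd200, Bst2, Muc1 and Nt5e), against 3.86% of all genes. Cd36 was low, at 0.0702 FPKM in basal DMSO and 3.53 in luminal DMSO. Between the baicalin libraries Itga6, Itgb4, Lgr5, Icam1 and Cdh3 were higher by more than 1 under the luminal label, against 5.24% of all genes. Bst2 was lower by more than 1, against 2.99% of all genes. Itga6 (CD49f), which is paired with EpCAM in many mammary sorts and is stronger on basal cells, was at 44.9 FPKM in basal DMSO, 34.6 in basal baicalin, 73.2 in luminal DMSO and 71.3 in luminal baicalin. Unlike the 9 genes under DMSO it was higher under the luminal label. Kit, a receptor tyrosine kinase of luminal progenitors, was at 6.83, 2.72, 6.59 and 0.957 FPKM in the same order and was lower in both baicalin libraries. Procr, the protein C receptor, was higher in both, at 2.19 FPKM in luminal DMSO and 11.8 in luminal baicalin. Thy1 (CD90) stayed at or below 0.501 FPKM. Bst2, an interferon-inducible membrane protein, was at 135 FPKM in basal DMSO, 49.1 in basal baicalin, 18.02 in luminal DMSO and 18.07 in luminal baicalin. Lgr5, a receptor for R-spondins, was at 17.7 FPKM in luminal DMSO, 1.93 in luminal baicalin and at most 0.398 in the libraries labelled basal. Tspan8, a tetraspanin, was at 42.2 FPKM in luminal DMSO and 9.59 in luminal baicalin.

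The integrin family gave the chains with which Itgb1, Itgb3 and Itga2 can pair. Of 26 chains 21 were tested, the 3 sorting genes included. With baicalin, Itgb2, a leukocyte chain, was the 1 chain higher by more than 1 under the basal label, against 2.15% of all genes. Itgb2 was low, at 0.545 FPKM in basal DMSO and 3.23 in basal baicalin. Itga2 was the 1 chain higher under the luminal label, against 2.37% of all genes. Under each label 0 were lower, against 3.33% (basal) and 1.59% (luminal) of all genes. The median log2 changes were -0.11 and 0.16. Between the DMSO libraries Itga11 was higher by more than 1 under the luminal label, against 4.71% of all genes. It was low, at 0.0883 FPKM in basal DMSO and 2.10 in luminal DMSO. Itga3 and Itgb6 were lower by more than 1, against 3.86% of all genes. Itga3, a laminin-binding partner of the β1 chain, was at 111 FPKM in basal DMSO, 75.2 in basal baicalin, 31.8 in luminal DMSO and 63.1 in luminal baicalin, the order of direction that Itgb1 and Cd44 also had. Itgb4, which pairs with the α6 chain in hemidesmosomes, was at 69.8, 53.7, 72.3 and 141 FPKM in the same order. Itgav, the epithelial partner of the β3 chain, varied little, between 18.2 and 21.7 FPKM. Itga2b, the platelet partner, was between 0.919 and 1.47 FPKM, and Itga1, the other main collagen-binding chain, at or below 0.375 FPKM.

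Of 30 genes listed for the Ly6 family 28 were found and 14 tested. Under the basal label 4 were lower by more than 1 with baicalin (Ly6a, Ly6c1, Ly6d and Lypd3), against 3.33% of all genes. The number higher was 0, against 2.15% of all genes. Under the luminal label 5 were higher (Ly6a, Ly6g6c, Lypd3, Lypd6b and Plaur), against 2.37% of all genes, and 0 lower, against 1.59%. Their medians were -0.07 and 0.50. Between the baicalin libraries 7 of the 14 were higher by more than 1 under the luminal label, against 5.24% of all genes, and 1, Plaur, was lower, against 2.99% of all genes. The median was 1.15. Ly6d, a marker of stratified epithelium and lymphoid progenitors, was at 103 FPKM in basal DMSO, 31.2 in basal baicalin, 749 in luminal DMSO and 713 in luminal baicalin. Ly6e was at 333, 328, 174 and 225 FPKM in the same order. Lypd3 was at 42.6, 16.4, 25.1 and 51.2 FPKM, with both directions as in Ly6a. Plaur, the urokinase receptor, was at 24.0, 34.8, 4.01 and 14.1 FPKM and was higher in both baicalin libraries.

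**Figure D5:**
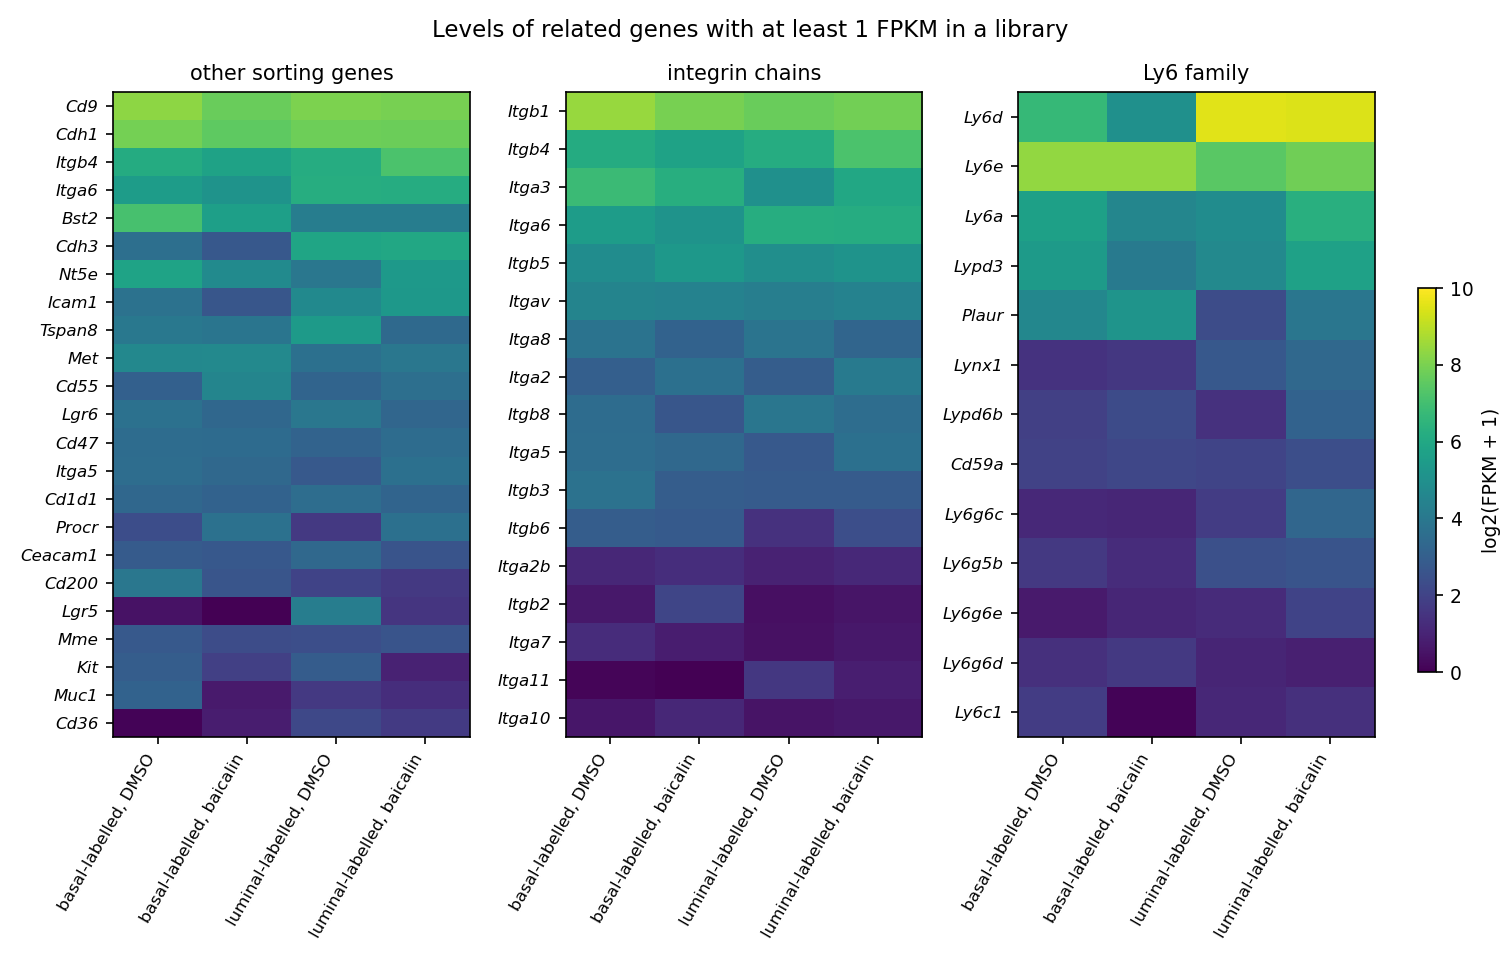
log2(FPKM + 1) of the other sorting genes, the integrin chains and the Ly6 family in the 4 libraries, for genes with at least 1 FPKM in a library, ordered by mean. Bst2 is brightest in basal DMSO and Ly6d in the libraries labelled luminal, while Itgav is of nearly even colour.

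Of 42 listed partners of the 9 proteins 41 were tested. Between the DMSO libraries 4 were lower by more than 1 under the luminal label (Tlr4, Cldn7, Spp1 and Msn), against 3.86% of all genes. The number higher was 0, against 4.71% of all genes. With baicalin, Hyal1 was higher by more than 1 under the basal label, against 2.15% of all genes. Lbp, Has2 and Tln2 were lower there, against 3.33%. Under the luminal label Hyal1 and Cd74 were higher, against 2.37% of all genes, and 0 lower, against 1.59%. Lbp and Cd74 were low, at 2.325 and 0.306 FPKM in basal DMSO and baicalin for Lbp. Cd74 was at 0.513 and 3.30 FPKM in luminal DMSO and baicalin. Cldn7, a claudin that binds EpCAM, was at 91.3 FPKM in basal DMSO, 78.4 in basal baicalin, 26.5 in luminal DMSO and 18.5 in luminal baicalin and was, like Epcam, higher under the basal label. Of the genes around CD44, the hyaluronan synthase Has2 was at 7.35, 2.40, 6.82 and 10.6 FPKM in the same order, with the directions of Cd44, and the hyaluronidase Hyal1 at 3.88, 9.72, 4.04 and 10.5 FPKM, higher with baicalin under both labels. The CD44 ligand osteopontin (Spp1) was at 683, 357, 187 and 213 FPKM. The epithelial splicing regulators Esrp1 and Esrp2, which act on Cd44 exons, varied little, from 41.6 to 49.9 FPKM and from 15.4 to 19.3 FPKM.

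For the 6 genes whose log2(FPKM + 1) ranged over more than 1, the 2 protein-coding genes with the most similar profile over the 4 libraries were found among 8570 candidates, by the root mean square difference of centred log2 values. For Itga2 these were Anxa8 (0.025) and Gsto1 (0.084), and for Cd44 Tapbp (0.051) and Hspa4l (0.067). For Epcam they were Trim25 (0.054) and Pnpt1 (0.069), and for Prom1 Irgm2 (0.083) and Parp14 (0.13). For Cd14 they were Slain1 (0.13) and Krt18 (0.15), and for Ly6a Ecscr (0.15) and Rai14 (0.18). With 4 libraries many genes share a profile, and the distances only rank them.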

How the data were processed

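Per the study's methods, the authors mapped reads to GRCm38 with HISAT2, counted fragments per gene with featureCounts on Ensembl release 94 genes and deposited FPKM for 54446 genes in 4 libraries. The submitters' processing notes also list Bowtie 0.12.2 and mm8, with no role given. The strand setting and the handling of multiply mapped reads are not given in the sources used here.

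Depth was recovered from the low genes, whose FPKM times GENCODE M21 exon length was a multiple of the worth of 1 fragment. For 7 of the 9 genes the annotated length gave whole fragments (within 0.03) in all 4 libraries. For Epcam and Cd14 the exon length that did so, 2040 and 1572 bases in place of 2195 and 1732, was used. Of low genes, between 98.7% and 98.9% were whole within 0.05. Levels have exact Poisson and ratios Clopper-Pearson 95% intervals, and ratios of ratios have intervals by a normal approximation on the log scale. Log2 changes had 1 FPKM added, genes above 0 in all 4 libraries were tested, and the threshold was 1. The study's t-test needs replicates and was not made. Near-identical genes had at least 95% identity over 200 bases (blastn 2.17.0). The rule named the 9 genes, a fixed set of partners, and up to 3 genes per list and comparison with the largest log2 change at 5 FPKM or more, not all of which are reported, and 1 of the fixed partners is not reported here. Cd200, Nt5e, Cd36, Itgb2, Itga11, Ly6e, Ly6c1, Msn, Lbp and Cd74 lie outside it and were named after their values were seen. The markers Foxa1, Gata3, Krt17, Cnn1, Oxtr and Tagln also lie outside it and were named with their values known. The genes, the lists and this rule were chosen with earlier results of these data known. Recovery of depth and the threshold calls were tested on simulated libraries with large changes. The intervals and the solved exon lengths were not tested in this way. Python 3.11.15, numpy 2.4.6, pandas 2.3.3 and scipy 1.17.1 were used.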

Additional observations from a re-analysis of the deposited data

Results flagged for a closer look

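For 5 genes the baicalin library lay below its DMSO library under the basal label and above it under the luminal label. With 1 library per condition the difference was not tested, and the share of all genes with opposite directions was not counted. The luminal ratio of baicalin to DMSO divided by the basal ratio was 6.09 for Ly6a, 3.93 for Prom1, 2.73 for Cd44, 1.90 for Itgb3 and 1.61 for Itgb1. For Itgb3 and Prom1 the luminal ratios, 1.0 (0.904 to 1.11) and 1.15 (0.972 to 1.37), did not leave 1 beyond counting error, so their direction under that label is not settled by these fragments.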

How the results depend on the processing

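Of 36 log2 changes of the 9 genes, none changed sign with 0.1 FPKM or no FPKM added, with TPM, or after centring on the median of all genes, and none of 12 did when near-identical genes were summed in. The largest move was 0.53, without added FPKM. Without an added value, rescaling to TPM shifts every log2 ratio between the DMSO libraries by -0.11. With 1 added, the shift differed between genes. The largest on TPM was 0.45, for Prom1 between the DMSO libraries, from -2.30 to -2.75. Among the DMSO libraries, genes lower by more than 1 under the luminal label numbered 3, and 5 on the TPM scale. With a threshold of 2, the 1 higher gene between the baicalin libraries, the 2 lower genes under the basal label and the 2 higher genes under the luminal label became 0, 0 and 0. The other counts of the 9 genes moved by no more than 1.5 times under the alternatives run. The difference in response of Cd24a, -0.05 on the log2 scale, became 0.02 after centring, an alternative added after the data were seen. Of all genes, between 8.64% and 16.1% per comparison and direction passed 1 without added FPKM, between 5.13% and 11.4% with 0.1 FPKM added, and between 0.231% and 1.36% passed a threshold of 2. No paired analysis was possible because each condition has 1 library, and for the same reason no replicate was left out. Depth limits Cd14 and Prom1 most, with 248 to 316 fragments in the luminal libraries.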
